A study of Mus musculus with 3 samples.

Results

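Matrix metalloproteinases and their inhibitors are represented by 10 genes: the secreted metalloproteinases Mmp8, Mmp9, Mmp12, Mmp13 and Mmp19, the membrane-anchored Mmp14, the tissue inhibitors Timp1, Timp2 and Timp3, and the membrane-bound metalloproteinase-disintegrin Adam8. They were chosen by symbol and gene identifier, and all 10 were found among the 55536 annotated genes of the deposited gene tables. The RNA was total RNA depleted of ribosomal RNA, from the cytosolic fraction of primary macrophages grown from the bone marrow of C57BL/6J mice. Lipid A is the membrane anchor of bacterial lipopolysaccharide and a ligand of TLR4; the cells had received it at 100 ng/ml for 12 h, then a washout of 12 h and a repeat dose of 100 ng/ml for 20 min. There were 3 libraries of this 1 group, numbered as biological replicates 1, 2 and 3 but with the same donor identifier, and sex and age were not collected. No untreated cells and no nuclear fraction were analysed here, so every value is a level after the repeat dose.

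Matrix metalloproteinases are zinc-dependent endopeptidases that cut collagens, elastin, proteoglycans and many cell-surface and secreted proteins. Most are made as inactive proenzymes whose prodomain blocks the zinc, and they become active when that prodomain is cut off. The TIMP proteins bind the active site and block it, and Timp2 bound to Mmp14 at the cell surface is also known as the docking site on which pro-Mmp2 is activated. In macrophages these enzymes are known for matrix turnover, migration and the trimming of chemokines.

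Expected counts on annotated genes totalled 32055937, 43616634 and 47864978 in replicates 1, 2 and 3. Levels are in TPM, a transcript's share of its library after reads are divided by transcript length, and so can be compared between genes. Protein-coding genes held 32.7%, 27.4% and 27.8% of the TPM. A gene therefore has a lower TPM here than it would if TPM were scaled over the coding genes alone. All 8 macrophage markers, among them Adgre1, Csf1r, Cd68 and Lyz2, stood above 10 TPM in every library. No fibroblast or stromal marker of 8 reached 1 TPM, and Pdgfra had 0 counts. Errors are SDs over the 3 libraries, whose spread may be technical in part.

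The genes fell into 3 tiers of level. Mmp14, Timp2 and Adam8 had means of 34.9 to 68.3 TPM. Mmp19, Mmp12, Mmp13, Mmp8 and Timp1 had means of 1.33 to 6.08 TPM, and Mmp9 and Timp3 were near the limit of detection. At 1 TPM or more in every library were 7 of the 10, against 9092 of 22028 coding genes, or 41.3%. The steps from Timp2 to Adam8 (a 1.84-fold ratio of means), from Adam8 to Mmp19 (5.75-fold) and from Timp1 to Mmp9 (14.2-fold) were the 3 steps in the order of means at which the libraries of neighbours did not overlap. Between all other neighbours in the order the ranges overlapped. Within each library, Mmp12 was above Mmp13 and Mmp9 above Timp3 in all 3, and each of the other overlapping pairs held its order in 2 of the 3.

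**Figure D1:**
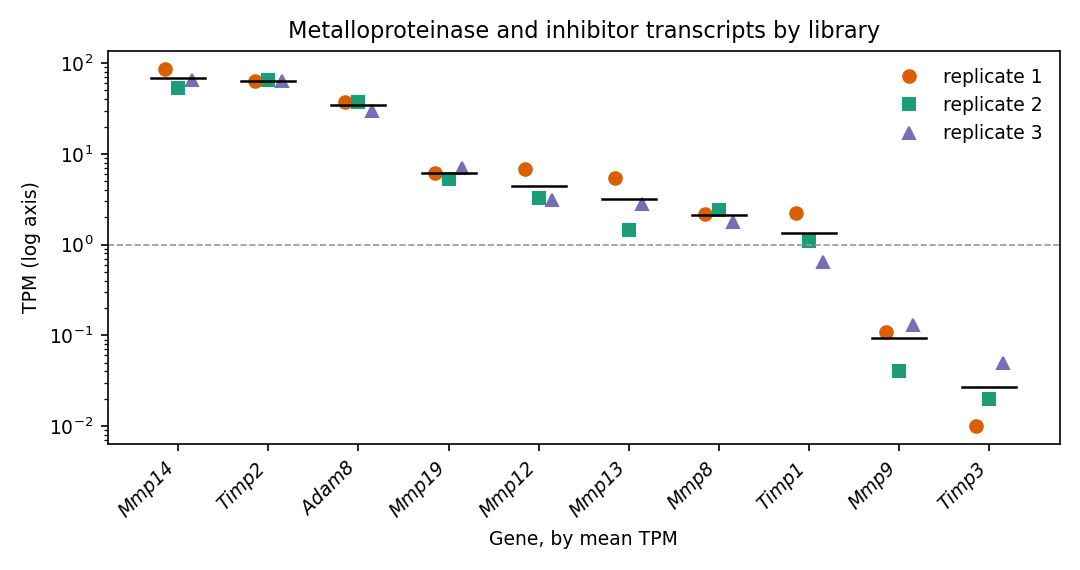
TPM of each of the 10 genes (log axis) in replicates 1, 2 and 3, ordered by mean, with the mean as a black line and 1 TPM as a dashed line. Mmp14, Timp2 and Adam8 lie at 29.4 TPM or above in every library, and Mmp9 and Timp3 lie at 0.13 TPM or below.

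The sequences just upstream of the annotated starts are shown for Mmp13 and Mmp12, the metalloproteinases with the largest differences between libraries, and for Mmp14, the most abundant. The metalloproteinase promoters are textbook examples of control by AP-1, the Fos and Jun factor, and by Ets factors at PEA3 sites. Each line gives the 250 bases before a RefSeq start on GRCm38.p6, 5′ to 3′ on the plus strand. Capitals mark matches, on either strand, to AP-1 (TGANTCA), PEA3 (AGGAAG), the TATA box (TATAAA) and the GC box (GGGCGG). Mmp12 has a pair of starts, and both are given. The windows lie at chr9:7272264-7272513 for Mmp13, at chr9:7344147-7344396 and chr9:7347124-7347373 for the upstream and downstream starts of Mmp12, and at chr14:54431348-54431597 for Mmp14.
Mmp13: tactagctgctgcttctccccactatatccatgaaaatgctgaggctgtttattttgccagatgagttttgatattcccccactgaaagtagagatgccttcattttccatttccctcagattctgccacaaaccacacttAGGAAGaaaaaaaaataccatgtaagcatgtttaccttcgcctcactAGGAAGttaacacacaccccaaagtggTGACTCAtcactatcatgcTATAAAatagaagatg
Mmp12, upstream start: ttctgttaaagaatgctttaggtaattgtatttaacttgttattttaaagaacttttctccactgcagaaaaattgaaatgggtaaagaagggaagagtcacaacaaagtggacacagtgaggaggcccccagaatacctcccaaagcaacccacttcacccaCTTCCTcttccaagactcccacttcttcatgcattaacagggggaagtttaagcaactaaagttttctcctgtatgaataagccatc
Mmp12, downstream start: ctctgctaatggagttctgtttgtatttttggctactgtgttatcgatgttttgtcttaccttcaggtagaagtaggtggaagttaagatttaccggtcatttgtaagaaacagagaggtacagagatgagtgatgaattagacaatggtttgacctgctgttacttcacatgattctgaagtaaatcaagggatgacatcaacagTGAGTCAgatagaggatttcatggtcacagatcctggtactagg
Mmp14: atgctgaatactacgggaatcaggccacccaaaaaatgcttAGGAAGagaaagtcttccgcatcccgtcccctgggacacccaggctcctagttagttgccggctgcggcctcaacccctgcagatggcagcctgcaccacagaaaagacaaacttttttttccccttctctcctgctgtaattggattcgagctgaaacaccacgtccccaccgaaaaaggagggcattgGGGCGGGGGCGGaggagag

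Mmp13 had the fullest set of these letters, with an AP-1 match at positions -35 to -29 before the start, a TATA box at -16 to -11 and PEA3 matches at -109 and -62. The downstream start of Mmp12 had an AP-1 match at -44 to -38, and the upstream start had a PEA3 match at -87 but no AP-1 match. Letters of a kappaB site (GGGRNNYYCC) were also searched but are not marked in capitals. They had a match at -129 to -120 before the upstream start of Mmp12. Mmp14 had no AP-1 or TATA match. It had adjoining GC boxes at -19 and -13 and a PEA3 match at -209. The GC content of its window was 55.2%, against 40.4% for Mmp13 and a median of 52.4% over 32851 windows of the same length. RefSeq windows were matched for 8 of the 10 genes, 9 windows in all, and AP-1 letters were in 2 of these 9. Among all 32851 windows, AP-1 letters were in 6.75%, PEA3 letters in 29.5%, the TATA box in 12.4%, the GC box in 32.7% and kappaB letters in 7.25%. The Timp1, Timp2, Timp3 and Adam8 windows each had 1 GC box and no AP-1 or TATA match. PEA3 matches were 2 for Timp1, at -175 and -99, and 1 each for Timp3, at -204, and Mmp8, at -220. The Timp2 and Adam8 windows had no PEA3 match. A match here is a description of letters and not of a bound factor.

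Among the enzymes, Mmp14 (ENSMUSG00000000957.11, chr14:54431612-54445364, plus strand), the membrane-type collagenase that also activates pro-Mmp2, was the most abundant. Its level was 87.0, 53.1 and 64.9 TPM in replicates 1, 2 and 3, or 68.3 ± 17.2 TPM (SD, n = 3). Replicate 1 was the highest and replicate 2 the lowest. The counts behind these levels were 10128, 10013 and 12683, so the 95% Poisson intervals of 85.3 to 88.7, 52.1 to 54.2 and 63.7 to 66.0 TPM did not overlap (counting error only). By its mean Mmp14 ranked 659 among 22028 coding genes. The transcript of Mmp2, the gelatinase whose proenzyme Mmp14 is known to activate, was low, at 0.24, 0.30 and 0.28 TPM.

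Mmp19 (ENSMUSG00000025355.7, chr10:128790910-128800824, plus strand) encodes a secreted enzyme of basement-membrane proteins. It had 6.08, 5.24 and 6.92 TPM, or 6.08 ± 0.84 TPM (SD, n = 3), with replicate 3 the highest. Its 3′ end overlaps Tmem198b, on the opposite strand, by 789 exon bases. Tmem198b had 1.78, 2.53 and 2.28 TPM, and since the strand setting of the counting is not given, reads in the shared bases cannot be told apart.

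Mmp12 (ENSMUSG00000049723.14, chr9:7344381-7369499, plus strand), the macrophage elastase, had 6.77, 3.29 and 3.11 TPM. Replicate 1 stood apart from the other two, which were close to each other, and the mean was 4.39 ± 2.06 TPM (SD, n = 3). Mmp13 (ENSMUSG00000050578.10, chr9:7272514-7283331, plus strand), the main interstitial collagenase of the mouse, had 5.42, 1.45 and 2.79 TPM, again with replicate 1 the highest. Its mean was 3.22 ± 2.02 TPM (SD, n = 3), and without replicate 1 it was 2.12 TPM. Mmp8 (ENSMUSG00000005800.3, chr9:7558456-7568485, plus strand), the collagenase stored in neutrophil granules, had 2.20, 2.41 and 1.76 TPM, or 2.12 ± 0.332 TPM (SD, n = 3). Replicate 2 was the highest and replicate 3 the lowest, and their Poisson intervals, 2.19 to 2.65 and 1.58 to 1.97 TPM, did not overlap.

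Mmp8 is also a neutrophil gene, so the neutrophil markers are given beside it. Of 15, S100a8, S100a9 and Csf3r were at 1 TPM or more in every library. Ly6g had 0 counts, which allows up to 0.146 TPM, and Elane and Mpo had at most 3 counts in a library. Summed over the 15 markers the level was 48.8, 38.6 and 51.8 TPM, mostly Csf3r (40.0, 27.5 and 34.3 TPM), the receptor for the granulocyte growth factor. S100a9 had 3.84, 5.56 and 9.97 TPM, lowest in replicate 1 and highest in replicate 3. The markers did not share 1 order over the libraries, and Csf3r was highest in replicate 1. The part of neutrophil RNA in the level of Mmp8 was not tested. In bulk RNA, few cells with much of a transcript and many cells with little cannot be told apart.

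Mmp9 (ENSMUSG00000017737.2, chr2:164940780-164955850, plus strand), gelatinase B, an enzyme of basement-membrane collagen, was near the limit of detection. It had 0.11, 0.04 and 0.13 TPM from 16, 6 and 31 counts. The Poisson interval of replicate 2, 0.0132 to 0.0784 TPM, overlapped that of replicate 1, 0.0621 to 0.176 TPM, but not that of replicate 3, 0.0858 to 0.179 TPM. Adam8 (ENSMUSG00000025473.16, chr7:139978932-139992562, minus strand), which sheds surface proteins of leukocytes, had 37.6, 37.8 and 29.4 TPM, or 34.9 ± 4.78 TPM (SD, n = 3). Replicates 1 and 2 were nearly equal and replicate 3 was the lowest. Adam8 was less abundant than Adam15 (55.0, 48.5 and 58.8 TPM) and near Adam9 (33.3, 26.0 and 29.8 TPM). Adam17, the main shedding enzyme of TNF, had 33.7, 26.8 and 27.6 TPM, and Adam10 had 20.4, 17.2 and 19.4 TPM. Of the 12 other ADAM and ADAMTS genes listed, these 4 reached a mean of 10 TPM.

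Among the inhibitors, Timp2 (ENSMUSG00000017466.9, chr11:118301069-118355740, minus strand) was at the level of Mmp14. It had 63.6, 65.4 and 64.0 TPM, or 64.3 ± 0.943 TPM (SD, n = 3), the narrowest relative spread of the 10 genes in TPM. Timp1 (ENSMUSG00000001131.11, chrX:20870166-20874735, plus strand), the inducible inhibitor, had 2.24, 1.10 and 0.64 TPM from 69, 55 and 33 counts. Its mean was 1.33 ± 0.824 TPM (SD, n = 3), and without replicate 1, the highest, it was 0.87 TPM. Timp1 lies within an intron of Syn1 on the opposite strand. Syn1 had 4.20, 3.84 and 3.44 TPM, above its intronic neighbour in every library, and the pair shares no exon bases.

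Timp3 (ENSMUSG00000020044.13, chr10:86300372-86349506, plus strand), the inhibitor that stays bound to matrix, had 0.01, 0.02 and 0.05 TPM from 2, 7 and 17 counts. The Poisson intervals of replicates 1 and 3, 0.00108 to 0.0321 TPM and 0.0265 to 0.0727 TPM, overlapped. It lies within Syn3 and shares 1733 exon bases with it, and Syn3 had 4, 0 and 5 counts. The remaining family member, Timp4, had 0 counts, which allows up to 0.0201 TPM. Of the 9 other inhibitors listed, Cst3 (cystatin C, an inhibitor of cysteine proteases) was the only gene at 1 TPM or more in every library, with 257, 214 and 172 TPM. A2m, the broad protease trap of plasma, had 0 counts, and Reck, a membrane-anchored inhibitor of metalloproteinases, had 0.04, 0.04 and 0.03 TPM.

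Set against each other, the 3 inhibitors summed to 65.9, 66.5 and 64.6 TPM, and the 6 metalloproteinases without Adam8 to 107.6, 65.6 and 79.6 TPM. The inhibitor sum was nearly level across the libraries, while the metalloproteinase sum was highest in replicate 1. The ratio of inhibitor to metalloproteinase transcripts was therefore 0.612, 1.01 and 0.812, or 0.813 ± 0.201 (SD, n = 3), below 1 in 2 of the 3 libraries. Timp2 alone made up 97.9% ± 1.22 of the inhibitor sum (SD, n = 3). Mmp14 made up 81.1% ± 0.329 of the metalloproteinase sum, at 80.9%, 81.0% and 81.5%, although its own level ranged from 53.1 to 87.0 TPM. The ratio of Timp2 to Mmp14 was 0.731, 1.23 and 0.986.

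The deposited data hold a second quantification, made from the reads without the alignments, in which coding genes held 16.4%, 15.2% and 12.1% of the TPM. The means of 9 of the 10 genes were lower there. That of Timp3 was higher, at 0.092 ± 0.0752 TPM (SD, n = 3) against 0.0267 ± 0.0208 TPM, which placed it above Mmp9. Of this second Timp3 level, 94.3%, 59.6% and 73.5% went to Timp3-203, a processed transcript of 674 nt with 0 counts in the first quantification. The coding transcript Timp3-201 took only 2.26%, 40.4% and 26.5%. In the second quantification Mmp14 had 43.4, 29.5 and 29.3 TPM and Timp2 had 39.9, 52.5 and 35.7 TPM. The ratio of inhibitor to metalloproteinase sums was 0.769, 1.45 and 1.00, or 1.07 ± 0.348 (SD, n = 3), so that whether the inhibitors or the enzymes were the more abundant depended on the quantification. Replicate 1 had the lowest ratio and replicate 2 the highest in both. No test across 3 libraries of a single value was made, since an exact sign-flip test cannot go below a two-sided p of 0.25.

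**Figure D2:**
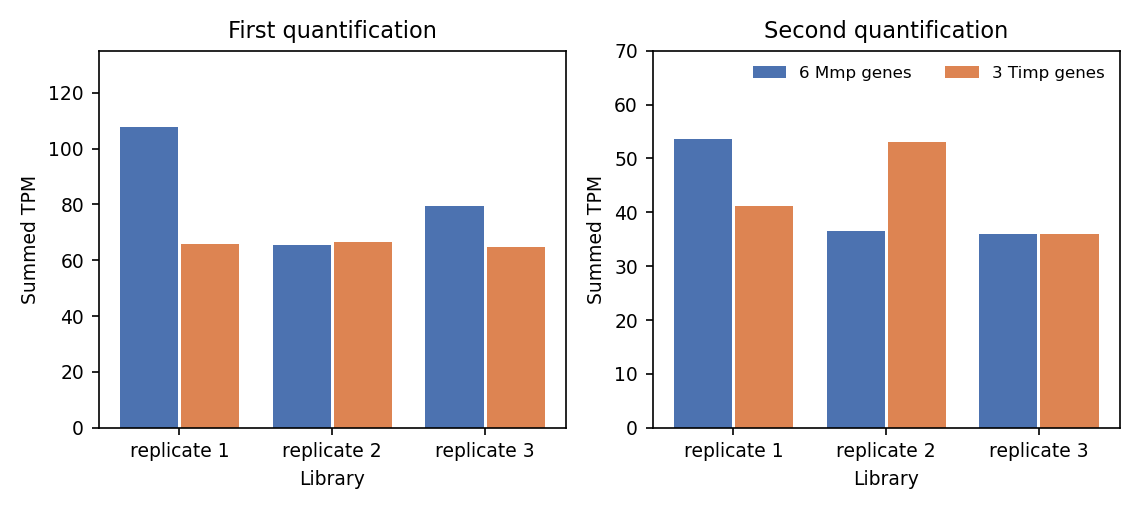
Summed TPM of the 6 metalloproteinases (Mmp8, Mmp9, Mmp12, Mmp13, Mmp14 and Mmp19, blue) and the 3 inhibitors (Timp1, Timp2 and Timp3, orange) in each library, in the first (left) and second (right) quantification, on separate axes from 0. In the first the inhibitors exceed the enzymes in replicate 2 and are below them in replicates 1 and 3; in the second they are below them in replicate 1.

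Of the 7 genes at 1 TPM or more in every library, Timp2 differed most between the quantifications. With each library scaled to its coding genes, the second gave Timp2 a log2 difference of 0.40 ± 0.11 over the first (SD, n = 3), above that of 96.7% of 9083 coding genes. The 10th to 90th percentile range of those genes was -0.09 to 0.25. The other 6 had log2 differences of -0.07 to 0.07.

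The annotated Timp2 transcripts differ in length. Timp2-201, the full-length coding transcript of 3709 nt, took 74.5%, 88.1% and 78.6% of the gene's TPM in the first quantification, and 52.5%, 53.5% and 56.7% in the second. The remainder went to Timp2-202, a coding fragment of 718 nt. The short transcript took few reads, 394, 307 and 562 estimated counts against 8246, 16118 and 14581 for Timp2-201, but TPM divides by length and so gives these reads a larger share. In the first quantification Timp2-201 alone had 47.4, 57.6 and 50.3 TPM, and Timp2-202 had 16.3, 7.77 and 13.7 TPM. Replicate 2 was thus the highest for the long transcript and the lowest for the short one, and their sum was nearly level. By reads the gene was not level: it had 269.5, 376.6 and 316.4 CPM (counts scaled to the library's total), highest in replicate 2.

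**Figure D3:**
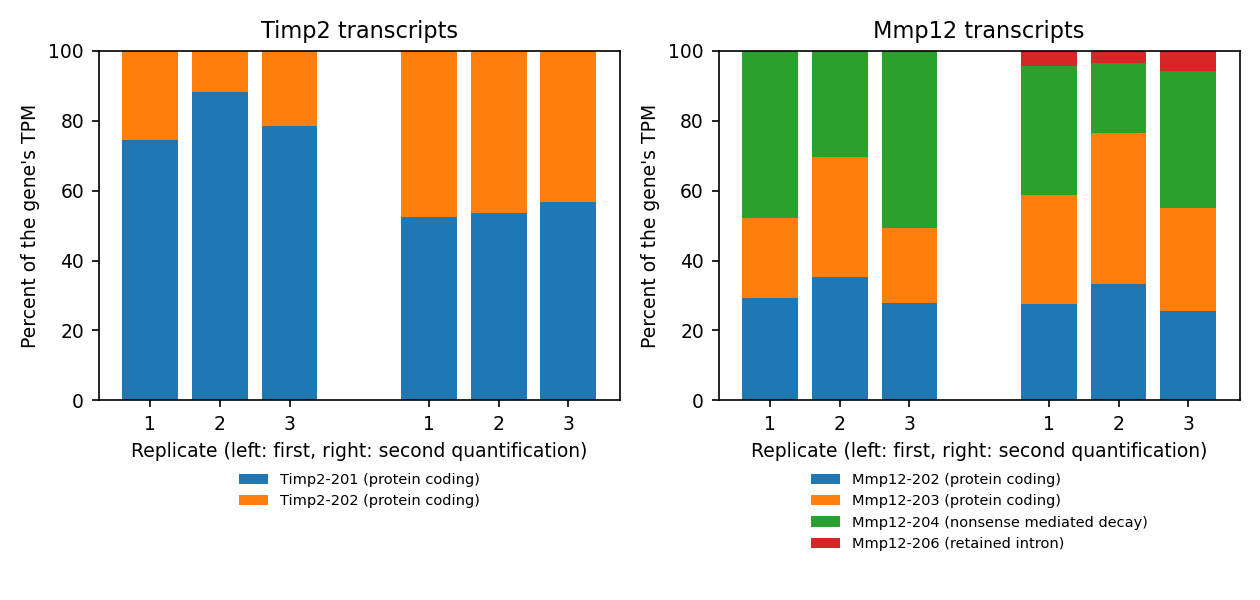
Percent of the TPM of Timp2 (left) and Mmp12 (right) assigned to each annotated transcript, in replicates 1, 2 and 3 of the first quantification and then of the second. Timp2-201 takes 74.5% to 88.1% in the first and 52.5% to 56.7% in the second, and no bar of Mmp12 holds Mmp12-201.

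Mmp12 was split between starts and between coding and other transcripts. Mmp12-204, annotated as a target of nonsense-mediated decay, took 47.7%, 30.4% and 50.6% of the gene's TPM. The coding transcripts Mmp12-202 and Mmp12-203 took 29.1%, 35.2% and 27.8%, and 22.9%, 34.3% and 21.5%. In the second quantification Mmp12-204 took 37.0%, 20.2% and 39.2%, with a mean of 32.1% ± 10.4 (SD, n = 3), below the 34.6% ± 7.54 of Mmp12-203, so the order of these transcripts by their means turned. Mmp12-201, the longest coding transcript at 3607 nt, was at 0 in every library. By start, transcripts from the downstream start, at chr9:7347374-7347406, took 73.8% ± 6.99 (SD, n = 3), and those from the upstream start, at chr9:7344381-7344397, took 26.2% ± 6.99. The second quantification gave 65.4% ± 7.54 and 34.6% ± 7.54, the same order of the starts. Replicate 2 had the lowest share from the downstream start in both quantifications, 65.7% and 56.8%. Of the transcripts from that start, Mmp12-204 had its lowest share in replicate 2 and Mmp12-202 its highest, in both quantifications. These shares come from assigning reads to annotated transcripts, and use of the starts was not tested.

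The remaining genes were carried mainly by 1 transcript or by a pair. Mmp14-201 took 97.6% ± 0.831 of Mmp14, Mmp19-201 took 74.3% ± 6.49 of Mmp19 and Timp1-201 took 71.9% ± 4.48 of Timp1 (SD, n = 3 each). Adam8-201 took 65.3% ± 0.669 and Adam8-202 took 32.2% ± 0.517. Mmp8 and Mmp13 were assigned wholly to the coding transcripts Mmp8-201 and Mmp13-201. Retained-intron transcripts took 1.82%, 0.282% and 0.848% of Mmp14 and 2.77%, 0.874% and 1.155% of Adam8. Over the 5727 coding genes at 1 TPM or more that have such a transcript, they took 5.775%, 4.64% and 5.09%. In each case replicate 1 was the highest and replicate 2 the lowest.

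Because the series has 1 group, the test available is whether a gene's share of the reads differed between the 3 libraries by more than counting noise. In edgeR's likelihood ratio test of library with the dispersion set to 0, 8802 of 12372 genes were called at a Benjamini-Hochberg adjusted p under 0.05, which is 71.1%. Of the 10 genes, 8 had enough counts for the test and all 8 were called, while Mmp9 and Timp3 were filtered out. Given that background, a call by itself says little, and the size of the difference is the measurement.

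Mmp13 had the largest spread of the 8, with an SD of log2 CPM of 0.86 and a 3.29-fold range between replicates 1 and 2 (adjusted p = 1.07e-68 in edgeR). Of all genes tested, 97.7% had a smaller SD. Timp1 followed, with an SD of 0.82 and a 3.10-fold range, highest in replicate 1 and lowest in replicate 3 (adjusted p = 1.28e-07 in edgeR), above 97.3% of genes. It had only 69, 55 and 33 counts, so counting noise adds to its SD, and these shares of genes were not matched for level. Mmp12 had an SD of 0.57 and a 1.99-fold range (adjusted p = 3.59e-28 in edgeR), above 92.9% of genes. Its call rested on replicate 1, since without that library the adjusted p was 0.96.

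The 5 others had SDs of 0.21 to 0.26 on the log2 scale. They were Mmp14, Mmp8, Adam8, Mmp19 and Timp2, and their adjusted p ranged from 2.17e-144 for Mmp14 to 8.48e-06 for Mmp8 in edgeR. The call of Mmp8 was lost without replicate 2 (adjusted p = 0.157) and that of Mmp19 without replicate 3 (adjusted p = 0.655, both in edgeR). The median SD of the 8 genes was 0.26, against 0.18 over all genes tested. When the dispersion common to the libraries was used in place of 0, a coefficient of variation of 0.191, edgeR called 324 genes, or 2.62%, and Mmp13 was the only one of the 8 (adjusted p = 0.00688). Timp1 then had an adjusted p of 0.0827 and Mmp12 of 0.276 in edgeR. The common dispersion was estimated from these same 3 libraries with no term for library, so it already holds the differences being tested. A call with it marks a spread well above that of most genes, and a missing call does not show a lack of difference.

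**Figure D4:**
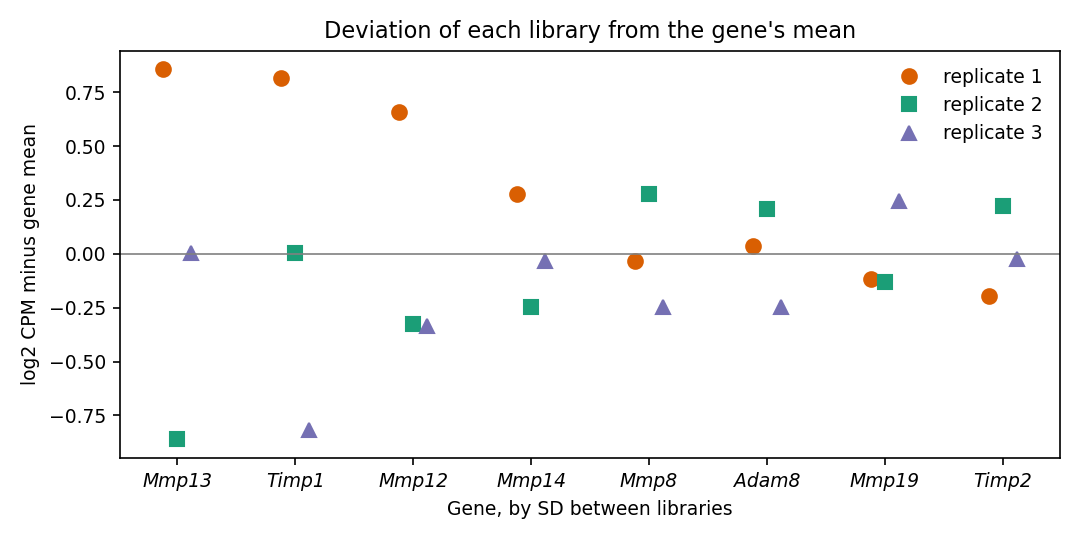
log2 CPM (counts scaled to the library's total with TMM factors) of each library minus the gene's mean, for the 8 genes with enough counts to be tested, ordered by the SD between libraries. Replicate 1 is the highest library for Mmp13, Timp1, Mmp12 and Mmp14, the 4 genes at the left, and replicate 2 for Mmp8, Adam8 and Timp2.

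Replicate 1 was the highest library for Mmp12, Mmp13, Mmp14 and Timp1, 4 of the 8, against 32.9% of all genes tested. It was also the highest for 5 of 8 other ADAM and ADAMTS genes tested, 2 of 4 other Mmp genes and 3 of 6 other inhibitors. Among surface partners it was the highest for 4 of 12, and among macrophage markers for 2 of 8. Nuclear RNAs and endothelial markers are given beside these counts. Xist, a nuclear RNA, had 13.4, 0.66 and 3.42 TPM, and Kcnq1ot1, another, had 0.21, 0.01 and 0.04 TPM. Over the 7 nuclear RNAs listed, the sum was 659.4, 176.3 and 702.3 TPM, highest in replicate 3 and mostly Malat1 (612, 156 and 637 TPM). Counted by gene in CPM, 3 of the 5 nuclear RNAs tested were highest in replicate 1 and 2 in replicate 3. Of the 5 endothelial markers listed, Kdr alone was at 1 TPM or more in every library, with 9.26, 3.09 and 1.97 TPM, highest in replicate 1. Pecam1 had 1.12, 0.51 and 1.32 TPM, highest in replicate 3, Cdh5 had 0.36, 0.23 and 0.28 TPM, and Tek had at most 1 count. By CPM, 1 of the 3 endothelial markers tested was highest in replicate 1 and 2 in replicate 3. The summed endothelial level, mostly Kdr, was 10.8, 3.89 and 3.6 TPM. The part of any of these in the differences between libraries was not tested.

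The genes whose profile over the libraries was most like those of the 3 most variable members were found by the largest absolute difference of centred log2 CPM, over 3 libraries and among 4209 genes with a mean of at least 10 TPM. For Mmp13 the nearest was Fpr1, the receptor for bacterial formyl peptides, at 0.017 on the log2 scale, followed by BC023105 at 0.119 and the small RNA Scarna10 at 0.126. For Mmp12 they were Tmem171 at 0.025, Clec4e, the receptor Mincle, at 0.027 and the cytokine gene Il15 at 0.031. For Timp1 they were Ctla2b at 0.125, the mitochondrial mt-Atp6 at 0.128 and Gm45236 at 0.140. With 3 libraries such a likeness describes the libraries and nothing more, and 13 genes lay within 0.1 of Mmp12.

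Mmp13, Mmp12 and Mmp8 belong to a cluster of 10 Mmp genes within 427 kb of chromosome 9 (chr9:7272514-7699585). At 1 TPM or more in every library were 4 of the 10, and the 6 others had at most 2 counts in any library. From the first end, Mmp13 and Mmp12 were followed by Mmp1b, Mmp3, Mmp1a and Mmp10, of which Mmp1b and Mmp1a had 0 counts, Mmp3 had 0, 0 and 1 counts and Mmp10 had 2, 1 and 1. The zeros allow at most 0.0493 TPM for Mmp1b and 0.0336 TPM for Mmp1a.

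Next came Mmp8 and, 2910 bp beyond its end, Mmp27, the gene of a little-studied stromelysin-like enzyme. Mmp27 had 4.76, 4.60 and 3.32 TPM from 374, 573 and 428 counts, or 4.23 ± 0.789 TPM (SD, n = 3), lowest in replicate 3 as Mmp8 was. It differed between libraries beyond counting noise (adjusted p = 1.11e-08 in edgeR). Its mean was close to the 4.39 TPM of Mmp12. Mmp20, the enamel enzyme, and Mmp7, matrilysin, at the far end, had 0 counts, which allow at most 0.0196 and 0.0718 TPM.

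**Figure D5:**
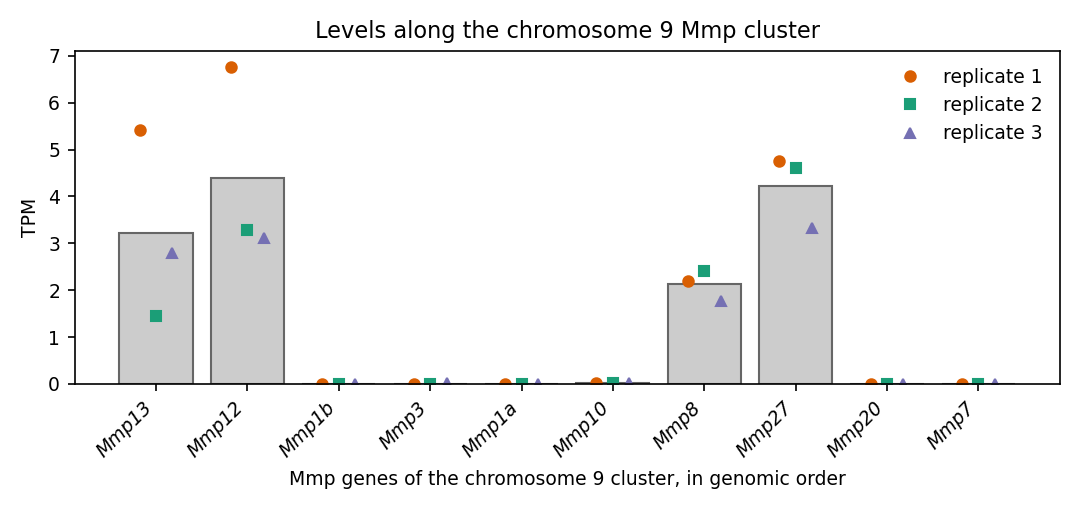
TPM of the 10 Mmp genes of the chromosome 9 cluster in genomic order, with the mean as a bar from 0 and replicates 1, 2 and 3 as points. Mmp13, Mmp12, Mmp8 and Mmp27 lie at 1.45 TPM or above in every library, and the other 6 lie at or below 0.03 TPM.

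Of the 17 Mmp genes not among the 10, Mmp27 was the only one at 1 TPM or more in every library, and 7 had 0 counts throughout. Mmp25, a membrane-anchored enzyme of leukocytes, had 1.16, 0.48 and 0.59 TPM, highest in replicate 1. The stromelysins Mmp3, Mmp10 and Mmp11 had at most 2 counts in a library, and the membrane-type enzymes Mmp15, Mmp16, Mmp17 and Mmp24 stayed at or below 0.03 TPM. Of these 17, 4 had enough counts for edgeR's test and 2, Mmp25 and Mmp27, were called, against the 71.1% of all genes.

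The proteases that are known to activate metalloproteinases were present in part. Furin, which cuts the prodomain of Mmp14 in the secretory pathway, had 17.95, 16.3 and 15.2 TPM, and Plau, the urokinase that makes plasmin, had 14.4, 14.4 and 12.3 TPM. Plgrkt, a surface receptor of plasminogen, had 27.3, 20.6 and 20.6 TPM, while Plg, plasminogen itself, a liver gene, had 0 counts (at most 0.0315 TPM). Of the 9 genes of this list, 5 were at 1 TPM or more in every library and all 5 were called in edgeR's test, against the 71.1% of all genes.

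Surface and secreted partners of these proteins were mostly abundant, with 10 of 12 at 1 TPM or more in every library. Cd63, the tetraspanin that binds Timp1, had 277, 245 and 242 TPM, and Cd74, a chaperone of antigen presentation that is also a shed surface receptor, had 234, 181 and 189 TPM. Lrp1, the endocytic receptor that clears metalloproteinases and Timp complexes, had 80.9, 76.0 and 109 TPM, and Bsg, the inducer of metalloproteinases known as EMMPRIN, had 77.4, 70.3 and 70.9 TPM. Cd44, which docks Mmp9 and Mmp14 at the surface, had 32.2, 30.5 and 25.3 TPM. Lcn2, the lipocalin that binds Mmp9, had 36.6, 11.3 and 12.1 TPM and was highest in replicate 1, with 97.7% of genes showing a smaller SD, while Mmp9 itself stayed at or below 0.13 TPM.

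Of 14 matrix substrates, 3 were at 1 TPM or more in every library and 2 reached a mean of 10 TPM. Spp1, osteopontin, had 474, 526 and 284 TPM, lowest in replicate 3. Thbs1, thrombospondin, had 82.9, 36.9 and 48.6 TPM, highest in replicate 1 as Mmp14 was. The other gene at 1 TPM or more in every library was the laminin gene Lamc1, with 2.30, 2.67 and 2.55 TPM. Most structural matrix genes were close to absent: 10 of the 14 had a mean below 0.1 TPM.

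Mmp9 and Mmp14 are also osteoclast genes, and of 8 osteoclast markers, Acp5 (11.7, 9.28 and 14.4 TPM), Nfatc1 (10.5, 12.3 and 12.5 TPM) and Atp6v0d2 (4.07, 5.91 and 4.98 TPM) were at 1 TPM or more in every library. Their sum with the rest of the list was 27.2, 28.0 and 32.3 TPM. Of the others, Calcr, Ocstamp and Dcstamp had at most 1 count in a library, Oscar had 0 counts, and Ctsk had 0.95, 0.57 and 0.54 TPM. The part of osteoclast-like cells in the levels of Mmp9 and Mmp14 was not tested.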

How the data were processed

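Total RNA-seq of 3 cytosolic libraries was analysed from the authors' tables. Their build is mm10 and their annotation GENCODE M21, per the README text deposited beside them. Program, version and strand use were not given in the sources at hand. Gene tables in the layout of RSEM, made from transcriptome alignments per that text, hold expected counts and TPM as deposited. The transcript tables hold each transcript's percent of its gene, as deposited by the authors. A second set of tables, in the layout of kallisto and made from the reads, holds the authors' estimated counts and their TPM for each transcript, which were summed per gene here.

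TPM was scaled by the authors over all 81881 entries of a library, tRNAs and spike-ins included, so short RNAs lower the TPM of all other genes. Library totals, 32055937 to 47864978 counts, cover the 55536 annotated genes, whose identifiers all matched GENCODE M21. Levels were given as mean and SD over libraries. The 95% intervals are exact Poisson intervals of the counts, a count of 0 allows up to 3 counts, and both cover counting error only.

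For the test, expected counts were rounded, and the whole numbers went into edgeR 4.0.16 (R 4.3.3) with TMM factors and filterByExpr, in a likelihood ratio test of library with dispersion 0 and Benjamini-Hochberg adjustment over all genes tested. Such p-values measure a departure from counting noise between these samples, which may be technical. On simulated counting noise with 12915 genes tested, the step recovered 32 of 50 genes changed 1.25-fold, 45 of 50 changed 1.5-fold and all 50 changed 2-fold or 4-fold, and called 4 of 12715 unchanged genes. The changed genes were drawn from those with a mean of at least 50 counts and were changed in replicate 1 only. Recovery at lower counts was not measured. DESeq2 1.42.0 gave the size factors of an alternative. Other alternatives were no filter, leaving out each library, the second quantification, the common dispersion, coding-gene scaling and TMM factors. Levels, sums and windows were computed in Python 3.11.15 (pandas 2.3.3, numpy 2.4.6, scipy 1.17.1) and drawn with matplotlib 3.10.9.

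The members and the 15 lists (144 symbols, all matched) were chosen with earlier results of these data known. Named were all members, the genes of each list with a mean of at least 10 TPM up to the 6 highest, host genes of members, the chromosome 9 cluster and, for the 3 members with the largest SD, the 3 genes most alike. Other genes named were chosen after their values were seen. Promoter windows came from RefSeq on GRCm38.p6.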

Additional observations from a re-analysis of the deposited data

How the results depend on the processing

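Of the counts of calls, the common dispersion, estimated from the same 3 libraries, moved both. It called 324 of 12372 genes (2.62%) and 1 of the 8 members tested (Mmp13), against 8802 (71.1%) and 8 with dispersion 0. At an unadjusted p under 0.05 it called 966 of the 12372 genes, 3 of the 8 members tested among them. DESeq2 size factors gave 8748 of 12372 genes (70.7%) and 8 of 8 members tested. No filter gave 10759 of 21794 genes (49.4%) and 10 of 10 members. The second quantification gave 9932 of 13440 genes (73.9%) and 8 of 8 members tested. Leaving out replicate 1, 2 or 3 gave 6564 of 12556 genes (52.3%), 6822 of 12779 (53.4%) and 6340 of 12296 (51.6%). The members called were then 7 of 8, 7 of 9 and 7 of 8 tested. The second quantification gave a mean of 34.1 TPM for Mmp14 and 42.7 TPM for Timp2, and a ratio of inhibitor to metalloproteinase sums of 1.07. Scaling to coding genes gave 231 TPM for Mmp14 and 221 TPM for Timp2, and raised the 10 means by 3.30 to 3.55 times. Without each library in turn, the mean was 59.0 to 75.9 TPM for Mmp14 and 63.8 to 64.7 TPM for Timp2, and the ratio was 0.712 to 0.913. TMM factors moved no mean by more than 1.01 times. The mean of Timp3 was 0.0267 TPM with all libraries and 0.015 TPM without replicate 3. In the second quantification the ratio of the sums passed to above 1 and Timp2 was above Mmp14. Timp3 (0.092 TPM) was above Mmp9 (0.0442 TPM) there, with a mean share of 75.8% from the processed transcript Timp3-203. No alternative turned the direction of a tested result, since the test of library has none. No paired analysis was possible because the series has 1 group. Depth limits Mmp9 and Timp3, which had at most 31 and 17 counts in a library and were tested with all 3 libraries only without the filter (adjusted p = 0.000881 and 0.0246 in edgeR). With 3 libraries of a single donor identifier, the spread between animals is not known, and levels of RNA say nothing of the enzymes' activation or of bound inhibitor. The causes of these shifts were not tested.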

Other observations

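Among the 14 matrix genes listed, Vcan, the proteoglycan versican, had 1.57, 0.46 and 0.73 TPM and, like Thbs1, was highest in replicate 1, with a 2.13-fold range of CPM. The laminin gene Lamc1 had 2.30, 2.67 and 2.55 TPM, highest in replicate 2. Rhbdf2, the partner that carries Adam17 to the cell surface, had 17.8, 10.2 and 11.7 TPM and a 1.53-fold range of CPM, while Adam17 itself had a 1.13-fold range. Among partners of lower level, Cd9, a tetraspanin, had 7.21, 6.70 and 3.18 TPM, lowest in replicate 3 with a 2.20-fold range of CPM, and Itgb3 had 0.17, 0.37 and 0.29 TPM. The B-cell gene Cd79b was the single gene of 8 B and T cell markers at 1 TPM or more in every library, with 1.06, 1.51 and 2.52 TPM. The neutrophil granule gene Ngp had 0.51, 0.50 and 1.30 TPM, highest in replicate 3.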
